A study of Mus musculus with 14 samples.

Results

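The lysosome and autophagy genes described here are a list of 30 genes among the 51789 counted in mouse tumours. They encode lysosomal membrane proteins, hydrolases and their activators, subunits of the proton pump, autophagy proteins and the transcription factors Tfeb and Tfe3. The members were found by gene symbol, and all 30 passed the filter on low counts that left 17294 genes for testing. Bulk tumour RNA was sequenced from polyadenylated 3′ ends in 14 libraries. The strain labels are NGS mouse and C57BI/6 mouse, written here as NGS and C57BI6, and the treatments are vehicle and ACSS2i, which inhibits ACSS2, an enzyme that makes acetyl-CoA. The groups were NGS vehicle (3 libraries), NGS ACSS2i (3), C57BI6 vehicle (4) and C57BI6 ACSS2i (4). The sources used here do not give genotype, tumour line, dose, treatment time, age or the meaning of NGS. A design line speaks of Bmal1 status, which the labels assign to no library. Nothing in the labels says that replicates are separate animals, so p-values measure the spread between these libraries, which may be technical.

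Lysosomes are acid compartments in which proteases, glycosidases and lipases break down material brought by endocytosis and autophagy. The vacuolar ATPase pumps protons into them, and autophagy encloses cytoplasm in a membrane coated with Atg8 family proteins that then fuses with the lysosome. Tfeb and Tfe3 are transcription factors that bind an E-box, the CLEAR element, in many of these genes; the kinase complex mTORC1 keeps them in the cytoplasm by phosphorylation, a step that RNA levels do not measure. ACSS2 makes acetyl-CoA from acetate, and under glucose shortage it has been described to bind TFEB in the nucleus and supply acetyl-CoA for histone acetylation at lysosomal and autophagy genes.

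Because Tfeb and Tfe3 bind that E-box, the letters upstream of the members are shown first. RefSeq promoter windows of GRCm38.p6, each 300 bases long from 250 before to 50 after an annotated start, were found for 25 of the 30 members (30 windows); Atp6v1h, Becn1, Ctsb, Map1lc3a and Npc1 were not matched. The core letters CACGTG stood in 10 of the 25 matched members, in 33.3% of their windows and in 7.15% of all 32851 windows. The longer TCACGTGA stood in 6 members, in 20% of their windows and in 0.974% of all windows. The longest form searched adds a G before it and a C after it. That form stood in 0 of the 25 matched members and in 0.326% of all windows. Each is its own reverse complement, so 1 search covers both strands, and each longer form contains the shorter. Members with CACGTG were Atp6v0d1, Atp6v1a, Ctsa, Ctsd, Ctsl, Gaa, Gla, Glb1, Lamp1 and Mcoln1. A match describes letters in a window and is neither a binding site nor a cause. Lamp1 is printed because its 250 upstream bases hold 4 copies, in capitals, and Uvrag because it had the smallest p of the members between the strains in vehicle and holds none.
Lamp1 (chr8:13158911-13159160, plus strand): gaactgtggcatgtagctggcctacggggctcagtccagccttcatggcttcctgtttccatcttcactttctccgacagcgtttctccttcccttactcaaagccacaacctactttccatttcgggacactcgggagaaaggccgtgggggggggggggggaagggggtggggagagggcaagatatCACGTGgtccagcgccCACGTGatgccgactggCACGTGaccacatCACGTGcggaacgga
Uvrag (chr7:99141145-99141394, minus strand): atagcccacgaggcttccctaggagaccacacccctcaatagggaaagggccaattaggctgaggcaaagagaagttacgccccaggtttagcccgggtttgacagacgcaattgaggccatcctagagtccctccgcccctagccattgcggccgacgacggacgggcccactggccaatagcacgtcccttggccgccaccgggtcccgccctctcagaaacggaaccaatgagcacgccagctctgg

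The windows with the longer motif are shown as 30 bases each, with TCACGTGA in capitals. They are shown because the members among them that passed between the strains in ACSS2i went in both directions. Ctsa held 2 copies within 1 such stretch and Gla held 2 in separate stretches.
Ctsa (chr2:164833757-164833786, plus strand): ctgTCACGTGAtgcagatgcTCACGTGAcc
Ctsd (chr7:142387908-142387937, minus strand): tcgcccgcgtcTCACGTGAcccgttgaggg
Mcoln1 (chr8:3500462-3500491, plus strand): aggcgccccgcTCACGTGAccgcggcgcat
Atp6v0d1 (chr8:105566050-105566079, minus strand): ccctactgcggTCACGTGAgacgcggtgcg
Atp6v1a (chr16:44139373-44139402, minus strand): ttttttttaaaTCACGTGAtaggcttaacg
Gla (chrX:134601215-134601244, minus strand): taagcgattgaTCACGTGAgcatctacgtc
Gla (chrX:134601182-134601211, minus strand): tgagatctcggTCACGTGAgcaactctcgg

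Each library's total ran from 2846161 to 4701101 counts in NGS and from 17645504 to 20344809 in C57BI6, so depth followed the strain, and strain, depth and any difference in handling cannot be told apart. Levels are given as CPM, a gene's counts relative to its library's total after TMM scaling, and differences as log2 fold changes with their standard error (SE) and adjusted p (Benjamini-Hochberg over 17294 genes) from edgeR's quasi-likelihood test, called at 0.05. Positions of genes are those of GENCODE M21 on mm10, and all 30 members are protein-coding. The label "tumor" names no cell type. Of 9 epithelial and breast tumour markers, the keratins of simple epithelia were present in every group, with Krt8 at 175 to 395 CPM and Krt18 at 15.8 to 52.4 CPM, and Cdh1, Esr1 and Erbb2 stood between 4.4 and 33.4 CPM. The epithelial adhesion molecule Epcam was at 0 to 3.84 CPM in NGS and 0 to 0.794 CPM in C57BI6, and Pgr was near 0. The basal keratin Krt14 was at 5.98 to 308 CPM in NGS and at or near 0 in C57BI6, up to 0.445 CPM. Krt5, another basal keratin, reached 168 CPM in NGS vehicle, 56.7 CPM in NGS ACSS2i and 0.596 CPM in C57BI6. In NGS a single library of each group was high, and the others were at 0.23 to 1.57 CPM. Summed CPM of 12 macrophage and monocyte markers, none at 0 in any group, was 2486 to 3632 with vehicle and 3553 to 3872 with ACSS2i in NGS, and 2868 to 4136 with vehicle and 3559 to 4467 with ACSS2i in C57BI6. That of 8 T and NK cell markers was 1.15 to 3.48 in NGS, where Cd3e, Cd3g and Ncr1 were at 0, and in C57BI6 7.05 to 14.7 with vehicle and 26.8 to 45.1 with ACSS2i, which do not overlap. Muscle markers summed to 277 to 5934 with vehicle and 12.9 to 595 with ACSS2i in NGS. In C57BI6 they summed to 3.32 to 947 with vehicle and 4.71 to 2801 with ACSS2i. Skin markers were at 704 in NGS vehicle 1 and 317 in NGS ACSS2i 1. They were at 0.329 to 13.5 in the other NGS libraries and at 4.27 to 7.22 in C57BI6. In bulk RNA, fewer cells of a type and less RNA per cell cannot be told apart.

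Between the strains 17 and 19 of the 30 members passed the test, in vehicle and in ACSS2i, beside 32.3% and 39.9% of all genes tested. The members were counted more than most genes, which makes a difference easier to call. A mean log2 CPM of at least 5 was found for 25 of the 30 members and for 5145 of the 17294 genes tested. Between the treatments 0 passed in C57BI6 and 1 in NGS, beside 0.439% and 3.11% of all genes. Summed over all members the level was 7556 to 8881 CPM with vehicle and 8521 to 9388 with ACSS2i in NGS, and 9784 to 11678 with vehicle and 9525 to 10622 with ACSS2i in C57BI6. The sums of the C57BI6 libraries thus lay above those of all NGS libraries, and the treated and vehicle libraries of C57BI6 overlapped. The members are described by role below, since a sum follows its most counted genes. In all, 23 members passed the test in 1 or more of the 5 comparisons. The 7 that passed in none were Lamp2, Npc1, Ctsa, Hexa, Gaa, Atp6v1h and Atp6ap1.

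**Figure D1:**
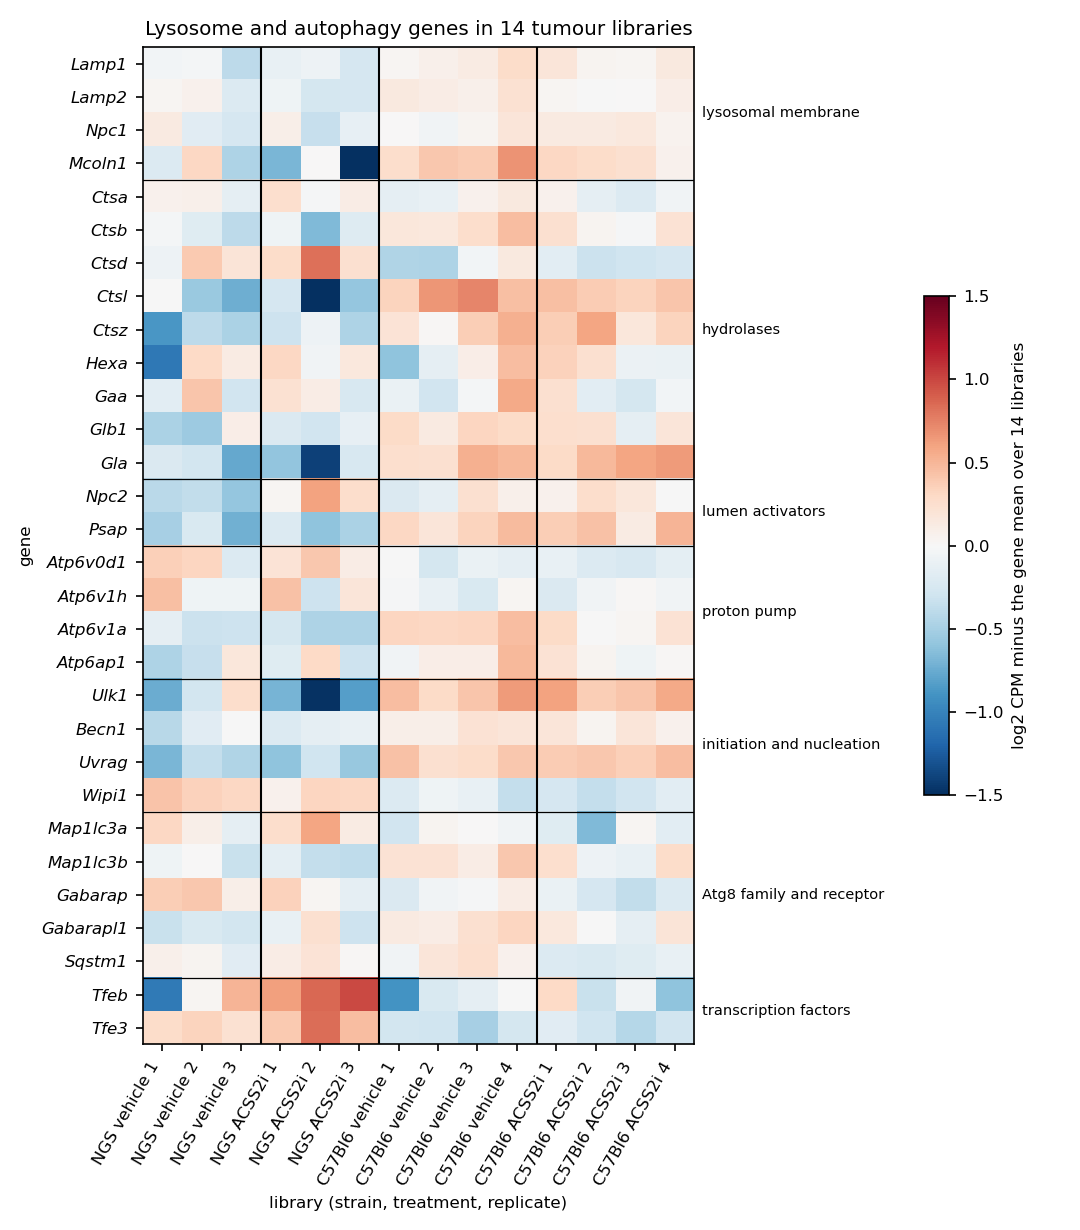
Level of the 30 members in each of the 14 libraries, as log2 CPM minus the gene's mean over all libraries, ordered by role from top to bottom and by group from left to right; the colour scale ends at 1.5 log2 units on either side. Uvrag, Psap, Ulk1 and Ctsl are darker red in the 8 C57BI6 columns and blue in most NGS columns, Wipi1 and Tfe3 show the opposite, and Ctsl, Gla and Ulk1 are lowest in NGS ACSS2i 2.

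In C57BI6 tumours the question was whether the inhibitor changed these genes, and 0 of the 30 members passed the test. Over all genes 76 of 17294 did (0.439%). An unadjusted p under 0.05 was found for 2 members, beside 1341 of the 17294 genes tested. The members' median log2 fold change was -0.07, beside -0.01 over all genes tested, and the single values ran from -0.29 (Sqstm1) to 0.14 (Tfeb). limma voom and DESeq2 each called 1 member, Sqstm1. Each of them also called more of all genes than edgeR did (counts below), so the share of 0.439% is not their background. In the same comparison all 8 T and NK cell markers had positive values (median 1.56), of which Nkg7 passed, and 7 had an unadjusted p under 0.05. All 12 macrophage and monocyte markers had positive values (median 0.27), and 2 passed. The other 7 marker lists had 0 called.

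Sqstm1, the receptor that carries ubiquitinated cargo into autophagosomes (ENSMUSG00000015837, chromosome 11, 50199366 to 50210827), had the smallest p of the members. It stood at 354, 417, 436 and 385 CPM in C57BI6 vehicle and at 319, 314, 325 and 340.3 CPM in C57BI6 ACSS2i. All treated libraries lay below all vehicle libraries. The log2 fold change was -0.29 ± 0.09 (95% interval -0.48 to -0.11; edgeR adjusted p = 0.222), and adjusted p was 0.0484 with limma voom and 0.0206 with DESeq2. In NGS, Sqstm1 was at 388, 377 and 327 CPM in vehicle and 398, 423 and 371 CPM in ACSS2i, 0.13 ± 0.10 (adjusted p = 0.495), where the groups overlapped. The difference between the strains' responses was -0.42 ± 0.13 (interaction, adjusted p = 0.234, and 0.0313 with DESeq2).

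Atp6v1a, the subunit of the proton pump that hydrolyses ATP (ENSMUSG00000052459, chromosome 16, 44085402 to 44139705), was the other member whose C57BI6 groups did not overlap. Its libraries were at 431, 429, 433 and 477 CPM in vehicle and 423, 344, 354 and 402 CPM in ACSS2i, a log2 fold change of -0.22 ± 0.09 (adjusted p = 0.535). Groups that did not overlap were found for 2 of 30 members and for 9.33% of all genes tested. The remaining 28 members had log2 fold changes from -0.21 (Mcoln1) to 0.14 (Tfeb) and overlapping groups. All 5 genes of the Atg8 family and receptor group had negative values, from -0.29 to -0.15, and only Sqstm1 among them had an unadjusted p under 0.05. The widest intervals belonged to Hexa (-0.48 to 0.70) and Tfeb (-0.42 to 0.71), so that changes of these sizes were not detectable here.

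In NGS tumours 1 of 30 members rose, Npc2, while 3.11% of all genes tested passed in either direction, 1.5% higher and 1.6% lower. Npc2 is the lumen protein that hands cholesterol to the membrane exporter Npc1 (ENSMUSG00000021242, chromosome 12, 84754562 to 84773152). It stood at 825, 847 and 730.1 CPM in vehicle and at 1117, 1655 and 1308 CPM in ACSS2i, with replicate 2 the highest. Every treated library lay above every vehicle library, and the log2 fold change was 0.76 ± 0.14 (95% interval 0.46 to 1.06; adjusted p = 0.012). In a fit of the 6 NGS libraries alone the value was 0.78 with adjusted p = 0.101. Leaving out any 1 library kept the call (adjusted p up to 0.0376).

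In C57BI6 the same gene was at 942, 993, 1287 and 1156 CPM in vehicle and 1145, 1311, 1229.7 and 1088 CPM in ACSS2i, 0.12 ± 0.12 (adjusted p = 0.929), and the groups overlapped. The difference between the strains' responses was -0.64 ± 0.19 (interaction, adjusted p = 0.213) and did not pass. Npc1, its partner in the membrane, had -0.03 ± 0.13 (adjusted p = 0.943) in NGS. Beside the Npc2 value, 2 of 12 macrophage and monocyte markers were higher in treated NGS tumours, Ly6c2 and Fcgr1, with 10 not passing. Of the other 8 marker lists, neutrophil and fibroblast markers each had 1 gene lower and 0 higher, and the remaining lists had 0 called. All 7 muscle markers had negative values (median log2 fold change -3.91) without passing. The part of these cells in the result was not tested. Fibroblast markers summed to 7587 to 8325 CPM in NGS vehicle and 5936 to 6738 in NGS ACSS2i.

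Ulk1, the kinase that starts autophagy (ENSMUSG00000029512, chromosome 5, 110784488 to 110810097), had the second smallest p in NGS and did not pass. Its libraries held 24.5, 34.1 and 49.5 CPM in vehicle and 25.4, 14.8 and 23.2 CPM in ACSS2i, so that the groups overlapped. The log2 fold change was -0.75 ± 0.22 (adjusted p = 0.0709). It was called with DESeq2 (0.0232), without NGS vehicle 1 (0.0348) and without NGS ACSS2i 1 (0.0364). In C57BI6 it was 0.04 ± 0.17 (adjusted p = 1), and the difference between the responses was 0.79 ± 0.28 (adjusted p = 0.266).

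The transcription factors themselves were higher in each treated NGS library than in each vehicle library, without passing the test. Tfeb was at 4.45, 9.42 and 13.2 CPM in NGS vehicle and 14.2, 16.8 and 18.4 CPM in NGS ACSS2i, 0.88 ± 0.34 (adjusted p = 0.149). These levels rest on 22 to 58 and 51 to 80 counts a library. Tfe3 was at 63.7, 66.2 and 61.5 and 69.3, 93.9 and 72.3 CPM, 0.30 ± 0.13 (adjusted p = 0.184). With Npc2 they made 3 of 30 members whose NGS groups did not overlap, beside 18.8% of all genes tested. The members' median in NGS was 0.03 against -0.01 over all genes. An unadjusted p under 0.05 was found for 4 of 30 members, beside 3773 of the 17294 genes tested. In the test of the difference between the strains' responses 0 of 30 members passed, with 4 at an unadjusted p under 0.05. Of the 17294 genes tested 3 passed (0.0173%), with 2306 at an unadjusted p under 0.05.

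**Figure D2:**
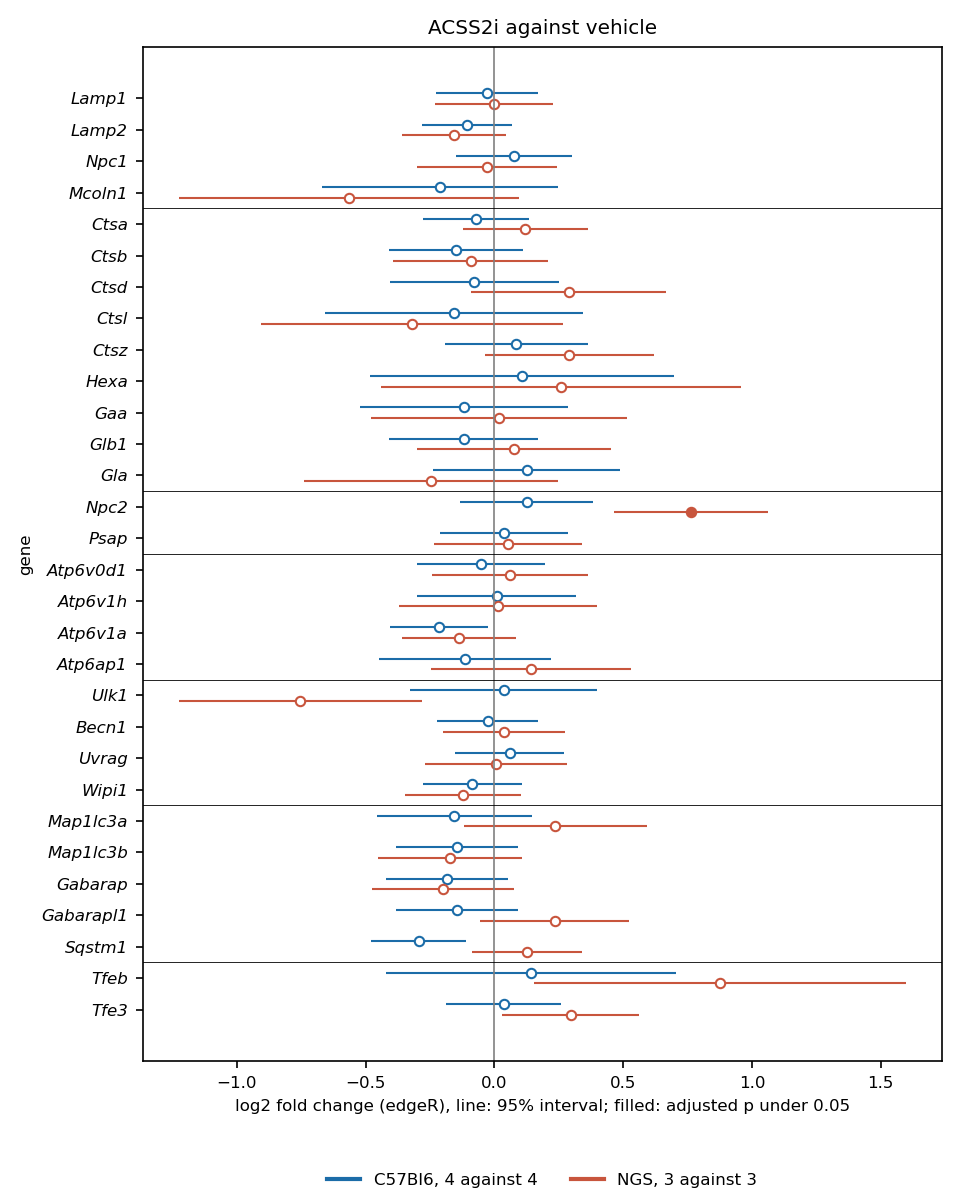
Log2 fold change of ACSS2i against vehicle for each member, in C57BI6 (4 against 4 libraries) and NGS (3 against 3), with 95% intervals; filled points passed at adjusted p of 0.05. Most intervals cross 0, Npc2 in NGS (0.76) is the single filled point, and the NGS intervals are wider than those of C57BI6.

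The comparison of the strains asks how the same genes stood in tumours of the other host. In vehicle, 14 members were higher in C57BI6 than in NGS and 3 were lower, while 32.3% of all genes tested passed (18.7% higher and 13.6% lower). In ACSS2i, 11 were higher and 8 lower, beside 39.9% of all genes (22.9% higher and 17% lower). The members' median was 0.30 in vehicle and 0.17 in ACSS2i, against 0.01 and 0.06 over all genes tested. Groups did not overlap for 17 members in vehicle and 20 in ACSS2i, beside 40.6% and 44.6% of all genes. These 2 comparisons use different libraries but the same fit, and the same difference in depth lies between the strains in each. In both, 13 members were called, 10 higher and 3 lower in C57BI6, each in the same direction. The share of all genes called in both was not determined, so the count of 13 has no background beside it. Members called in both under every alternative setting were Atp6v1a, Ctsz, Gla, Psap, Tfe3, Uvrag and Wipi1. With counts thinned to the depth of the shallowest library, 16 members were called in vehicle and 16 in ACSS2i. The thinned count over all genes in vehicle was lower too and is given below, and that in ACSS2i is not given. Marker genes of other cells differed too. In vehicle, 5 of 8 T and NK cell and 4 of 5 neutrophil markers were higher in C57BI6, as were 1 of 7 fibroblast and 1 of 8 epithelial markers. Lower there were 4 of 7 fibroblast, 4 of 8 epithelial, 2 of 6 skin, 1 of 5 endothelial, 1 of 7 muscle and 0 of 5 adipocyte markers. Their part in the members' differences was not tested. In vehicle 2 of 12 macrophage and monocyte markers were higher and 3 lower in C57BI6, and in ACSS2i 3 were higher and 4 lower.

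**Figure D3:**
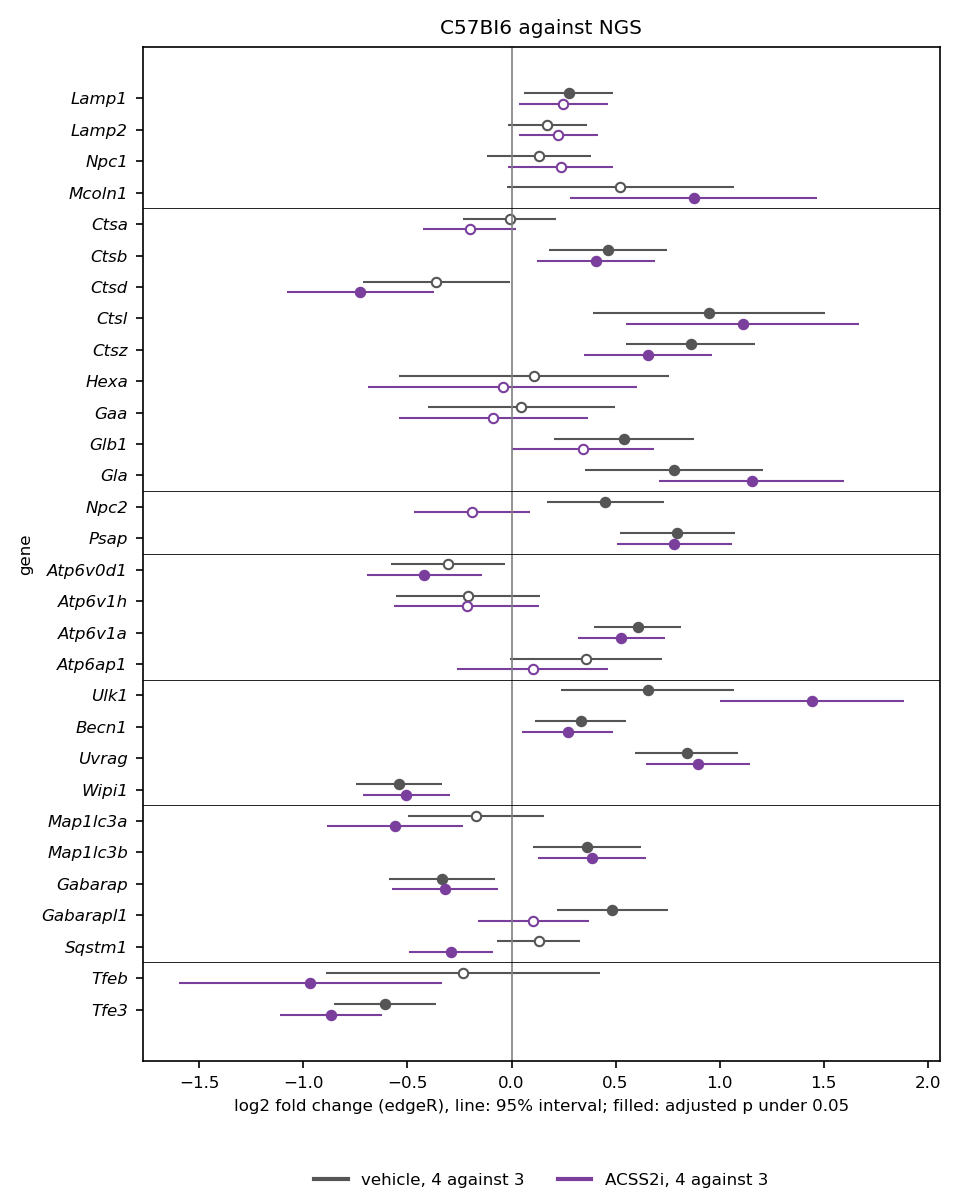
Log2 fold change of C57BI6 against NGS for each member, in vehicle and in ACSS2i (4 against 3 libraries each), with 95% intervals; filled points passed at adjusted p of 0.05. Filled points lie on both sides of 0, and for Uvrag, Psap, Ctsz, Wipi1 and Tfe3 both points lie on the same side with intervals that exclude 0.

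Of the 4 lysosomal membrane proteins 1 was higher in C57BI6 in each treatment, Lamp1 in vehicle and Mcoln1 in ACSS2i, and 0 were lower. Lamp1, an abundant glycoprotein lining the lysosome, was at 859, 871 and 676 CPM in NGS with vehicle and 821, 839 and 744 with ACSS2i, and in C57BI6 at 906, 934, 969 and 1073 with vehicle and 1006, 912, 903 and 983 with ACSS2i. The C57BI6 libraries lay above all NGS libraries in both treatments. The log2 fold change was 0.28 ± 0.10 (adjusted p = 0.0464) in vehicle and 0.25 ± 0.10 (adjusted p = 0.0613) in ACSS2i. Its call in vehicle was lost without NGS vehicle 3, C57BI6 vehicle 2/3/4 or C57BI6 ACSS2i 1/2 (up to 0.153) and under 6 of the 8 other settings, and it was called in ACSS2i without NGS vehicle 3 or NGS ACSS2i 2 (down to 0.0227), and with no filter (0.0479), limma voom (0.0116) and DESeq2 (0.0479). Mcoln1, a calcium channel of the lysosomal membrane, was at 7.08, 10.1 and 5.93 CPM in NGS with vehicle and 5.08, 8.24 and 2.76 with ACSS2i, and in C57BI6 at 9.83, 10.8, 10.6 and 13 with vehicle and 10.1, 9.88, 9.69 and 8.57 with ACSS2i, where the NGS values rest on 12 to 45 counts. It was 0.52 ± 0.26 (adjusted p = 0.132) in vehicle (called with thinned counts, 0.0375) and 0.87 ± 0.28 (adjusted p = 0.0203) in ACSS2i, a call lost without NGS ACSS2i 3 (0.117) and under 2 other settings. Lamp2, the related glycoprotein, had 0.17 ± 0.09 (adjusted p = 0.153) and 0.22 ± 0.09 (adjusted p = 0.057); it was called in ACSS2i without NGS vehicle 3 or NGS ACSS2i 1 (down to 0.024), and with limma voom (0.0228) and DESeq2 (0.0281). Npc1, the cholesterol exporter, had 0.13 ± 0.12 (adjusted p = 0.421) and 0.24 ± 0.12 (adjusted p = 0.124), and was called in ACSS2i without NGS ACSS2i 1 (0.0332).

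Of the 9 hydrolases 5 were higher and 0 lower in C57BI6 in vehicle, and 4 were higher and 1 lower in ACSS2i. The cysteine proteases Ctsb, Ctsl and Ctsz were higher in C57BI6, and the aspartic protease Ctsd was lower there in ACSS2i. Ctsl was at 387, 264 and 234 CPM in NGS with vehicle and 325, 125 and 259 with ACSS2i, and in C57BI6 at 488, 615, 643 and 531 with vehicle and 531, 506, 488 and 519 with ACSS2i. NGS ACSS2i 2 was the lowest library, and no NGS library reached the C57BI6 range. That gives a log2 fold change of 0.95 ± 0.26 (adjusted p = 0.0132) in vehicle and 1.11 ± 0.26 (adjusted p = 0.0046) in ACSS2i; the former was lost without NGS vehicle 2/3 (up to 0.056). Ctsz, whose groups did not overlap either, was at 84.6, 118 and 112 CPM in NGS with vehicle and 125, 147 and 113 with ACSS2i, and in C57BI6 at 179.7, 157, 200.2 and 224 with vehicle and 201, 235, 175 and 196 with ACSS2i. That is 0.86 ± 0.15 (adjusted p = 0.000268) and 0.65 ± 0.15 (adjusted p = 0.0021). Ctsb, which also cuts at chain ends, stood at 887, 799.6 and 688 CPM in NGS with vehicle and 864, 573 and 791 with ACSS2i, and in C57BI6 at 1016, 1013, 1089 and 1248 with vehicle and 1065, 928, 891 and 1054 with ACSS2i. It was 0.46 ± 0.13 (adjusted p = 0.0141) and 0.41 ± 0.13 (adjusted p = 0.0235), lost in vehicle without NGS vehicle 3 (0.0586), and in ACSS2i without NGS ACSS2i 2 or C57BI6 ACSS2i 1/4 (up to 0.103) and in the fit of the groups compared.

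Ctsd was at 984, 1365 and 1189.8 CPM in NGS with vehicle and 1255, 1839.5 and 1227 with ACSS2i, and in C57BI6 at 759, 755, 1012 and 1148 with vehicle and 934, 831, 845 and 872 with ACSS2i. In ACSS2i all C57BI6 libraries lay below all NGS libraries, of which replicate 2 was the highest. Its difference was -0.73 ± 0.17 (adjusted p = 0.00274) in ACSS2i and -0.36 ± 0.17 (adjusted p = 0.109) in vehicle, where it was called without C57BI6 vehicle 4 (0.0356), and with limma voom (0.0329). Ctsd and Ctsl are both made as inactive precursors and matured in the lysosome, a step not measured by RNA.

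Both galactosidases were higher in C57BI6 in vehicle. Gla, which removes terminal alpha-galactose from glycolipids, was at 18, 17.3 and 12.3 CPM in NGS with vehicle and 13.9, 7.91 and 17.7 with ACSS2i, and in C57BI6 at 24.9, 24.7, 30.4 and 29.3 with vehicle and 25.6, 29.4, 31.6 and 32.6 with ACSS2i. No NGS library reached the C57BI6 range in either treatment, and the log2 fold change was 0.78 ± 0.20 (adjusted p = 0.00739) in vehicle and 1.15 ± 0.21 (adjusted p = 0.000421) in ACSS2i. Glb1, the beta-galactosidase, was at 16.2, 15.5 and 24.2 CPM in NGS with vehicle and 19.5, 18.5 and 20.7 with ACSS2i, and in C57BI6 at 27.5, 24.7, 28.2 and 27.6 with vehicle and 26.8, 26.6, 20.5 and 25.6 with ACSS2i. Its difference was 0.54 ± 0.16 (adjusted p = 0.0157) in vehicle, lost without NGS vehicle 1/2 (up to 0.0908), and 0.34 ± 0.16 (adjusted p = 0.0998) in ACSS2i, where it was called without NGS vehicle 3 (0.0452). The remaining hydrolases did not pass in either treatment. Ctsa, which protects beta-galactosidase, had -0.01 ± 0.11 and -0.20 ± 0.11, Hexa, a hexosaminidase subunit, 0.11 ± 0.30 and -0.04 ± 0.30, and Gaa, which breaks down glycogen, 0.05 ± 0.21 and -0.09 ± 0.21. Hexa had the widest spread among them in vehicle, at 50.8, 131 and 116 CPM in NGS and 70, 96.6, 114 and 147 CPM in C57BI6.

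Psap and Npc2 act in the lysosomal lumen. Psap, the precursor of the saposins that present lipids to hydrolases (ENSMUSG00000004207, chromosome 10, 60277627 to 60302597), was at 1500, 1803 and 1281 CPM in NGS with vehicle and 1839, 1397 and 1519 with ACSS2i, and in C57BI6 at 2618, 2404, 2661 and 2939 with vehicle and 2726, 2873, 2305 and 3003 with ACSS2i. The lowest C57BI6 library lay above the highest NGS library in both treatments, and the log2 fold change was 0.80 ± 0.13 (adjusted p = 0.000177) in vehicle and 0.78 ± 0.13 (adjusted p = 0.000182) in ACSS2i. Npc2 was 0.45 ± 0.13 (adjusted p = 0.016) in vehicle, lost without NGS vehicle 3 or C57BI6 vehicle 3 (up to 0.054), and -0.19 ± 0.13 (adjusted p = 0.27) in ACSS2i, with the library values given above.

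Of the 4 subunits of the proton pump 1 was higher in C57BI6 in each treatment and 1 was lower in ACSS2i. Atp6v1a was at 315, 276 and 279.9 CPM in NGS vehicle, 289, 252 and 252 in NGS ACSS2i and, as given above, between 344 and 477 CPM in the C57BI6 libraries. It was higher in C57BI6 by 0.61 ± 0.10 (adjusted p = 0.000175) in vehicle and 0.53 ± 0.10 (adjusted p = 0.000525) in ACSS2i. Atp6v0d1, a subunit of the membrane sector, was at 55.4, 54.3 and 37.6 CPM in NGS with vehicle and 50, 57.3 and 46.7 with ACSS2i, and in C57BI6 at 43, 36.1, 40.4 and 39.5 with vehicle and 40.2, 37.5, 36.6 and 39.1 with ACSS2i. It was lower in C57BI6 in ACSS2i (-0.42 ± 0.13, adjusted p = 0.0182), a call lost without NGS ACSS2i 2 (0.0722), and at -0.31 ± 0.13 (adjusted p = 0.0822) in vehicle, where it was called without NGS vehicle 3 (0.00854), and with limma voom (0.0489), DESeq2 (0.0372) and thinned counts (0.0398). Atp6v1h, a regulatory subunit, had -0.21 ± 0.16 and -0.22 ± 0.17, and Atp6ap1, an accessory subunit, 0.36 ± 0.17 and 0.10 ± 0.17. Neither passed, except Atp6ap1 in vehicle without NGS vehicle 3 (0.0156).

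All 4 genes for initiation and nucleation of autophagosomes passed between the strains in both treatments, 3 higher and Wipi1 lower in C57BI6. Uvrag, a partner of Becn1 in the lipid kinase complex (ENSMUSG00000035354, chromosome 7, 98885021 to 99141141), was at 22.7, 28.5 and 26.7 CPM in NGS with vehicle and 24.1, 29.7 and 24.6 with ACSS2i, and in C57BI6 at 49.8, 43.4, 44.4 and 48.3 with vehicle and 47.8, 48.6, 46.9 and 50.3 with ACSS2i. The NGS libraries lay between 22.7 and 29.7 CPM and the C57BI6 libraries between 43.4 and 50.3 CPM. Its log2 fold change was 0.84 ± 0.12 in vehicle (adjusted p = 3.52e-05) and 0.89 ± 0.12 in ACSS2i (adjusted p = 2.06e-05), and 0 alternatives changed the call. Wipi1, which binds the lipid that this complex makes (ENSMUSG00000041895, chromosome 11, 109573331 to 109611967), was at 166, 156 and 153 CPM in NGS with vehicle and 129, 154 and 153 with ACSS2i, and in C57BI6 at 107, 118, 114 and 96 with vehicle and 103, 95.8, 101 and 110.1 with ACSS2i. Every C57BI6 library lay below every NGS library, -0.54 ± 0.10 (adjusted p = 0.000496) in vehicle and -0.51 ± 0.10 (adjusted p = 0.000744) in ACSS2i.

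Ulk1 held 57, 50.1, 54.9 and 64.2 CPM in C57BI6 vehicle and 62.6, 53.4, 54.9 and 61 CPM in C57BI6 ACSS2i, above all NGS libraries given earlier. The log2 fold change was 0.65 ± 0.20 (adjusted p = 0.0175) in vehicle, lost without NGS vehicle 1/2 (up to 0.0884), and 1.44 ± 0.21 in ACSS2i (adjusted p = 5.21e-05). Becn1, the scaffold of the lipid kinase complex, was at 58.3, 69.3 and 77.7 CPM in NGS with vehicle and 67.4, 70.8 and 72.3 with ACSS2i, and in C57BI6 at 83, 83, 90.3 and 88.2 with vehicle and 88.2, 80.3, 88.2 and 81.8 with ACSS2i. Its difference was small, 0.33 ± 0.10 (adjusted p = 0.0205) and 0.27 ± 0.10 (adjusted p = 0.0468). The call in vehicle was lost without NGS vehicle 1/2 or C57BI6 vehicle 3 (up to 0.106) and under 2 other settings, and that in ACSS2i without NGS vehicle 2, NGS ACSS2i 1/2/3, C57BI6 vehicle 1/2/3/4 or C57BI6 ACSS2i 1/2/3/4 (up to 0.108) and under 7 other settings.

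**Figure D4:**
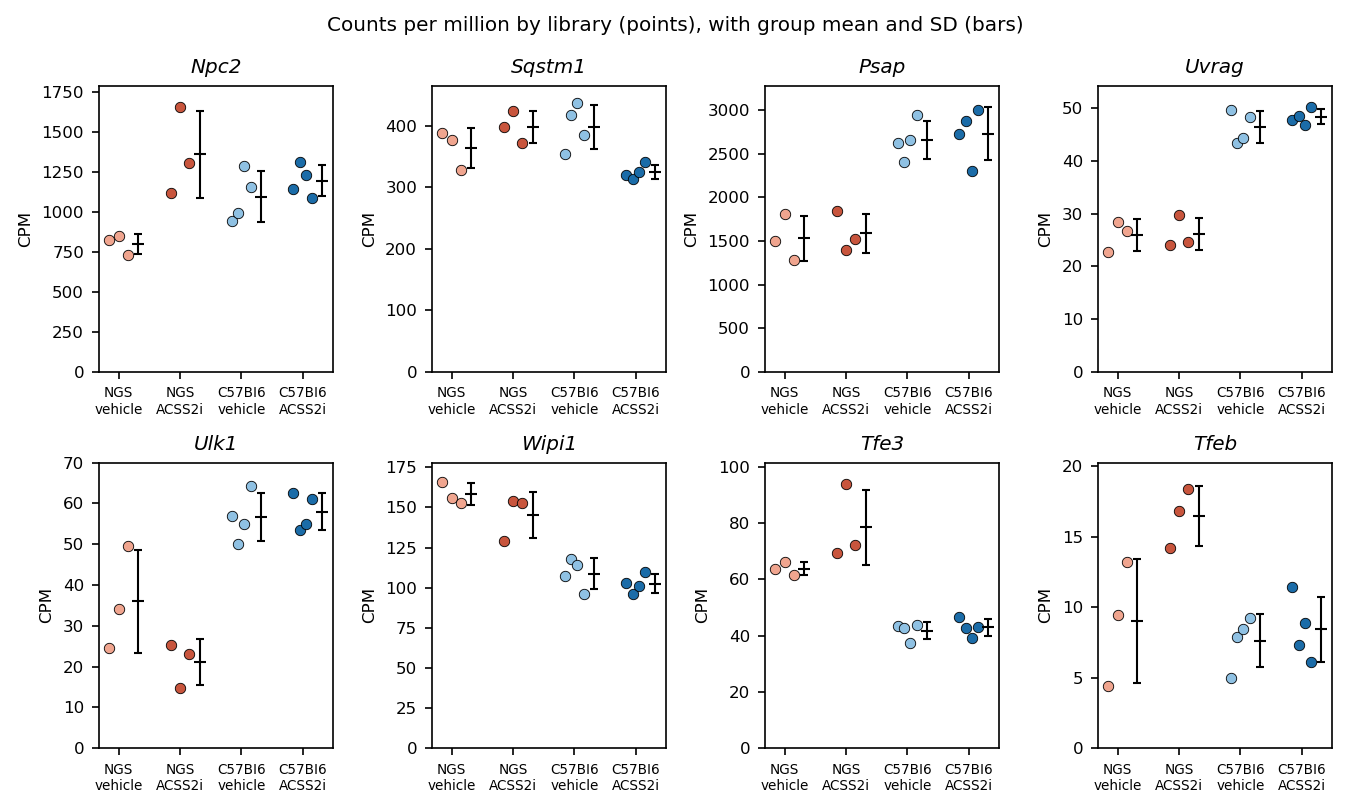
CPM of 8 members in each library (points), with the group mean and SD (bars), on axes that start at 0. Npc2 is higher in NGS ACSS2i than in NGS vehicle, Sqstm1 is lower in C57BI6 ACSS2i than in C57BI6 vehicle without passing the test, Psap, Uvrag and Ulk1 are higher in C57BI6, and Wipi1 and Tfe3 are lower there.

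Members of the Atg8 family, which coat the autophagosome membrane, and their receptor gave 2 higher and 1 lower of 5 in C57BI6 in vehicle, and 1 higher and 3 lower in ACSS2i. Map1lc3b was at 176, 184 and 146 CPM in NGS with vehicle and 166, 143 and 141 with ACSS2i, and in C57BI6 at 213, 213, 199 and 243 with vehicle and 218, 174, 170 and 223 with ACSS2i. It was higher in C57BI6, 0.36 ± 0.12 (adjusted p = 0.0329) and 0.39 ± 0.12 (adjusted p = 0.0201). The call was lost in vehicle without NGS vehicle 3 or C57BI6 vehicle 1/4 (up to 0.116), with limma voom (0.0529) and with thinned counts (0.0825). In ACSS2i it was lost without NGS ACSS2i 2/3 or C57BI6 ACSS2i 1/4 (up to 0.0727) and with thinned counts (0.0705). Gabarapl1 was at 57.1, 61.7 and 59.7 CPM in NGS with vehicle and 67.1, 85 and 58.2 with ACSS2i, and in C57BI6 at 79.5, 77.8, 85.6 and 90.1 with vehicle and 80.7, 72.1, 65.6 and 82.5 with ACSS2i, and its difference of 0.48 ± 0.13 (adjusted p = 0.0073) in vehicle stood beside 0.11 ± 0.13 (adjusted p = 0.529) in ACSS2i.

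Gabarap and Map1lc3a were lower in C57BI6. Gabarap was at 222, 226 and 182 CPM in NGS with vehicle and 218, 175 and 156 with ACSS2i, and in C57BI6 at 147, 165, 169 and 185 with vehicle and 159.5, 144, 133 and 149 with ACSS2i. Its groups overlapped in both treatments, at -0.34 ± 0.12 (adjusted p = 0.0429) and -0.32 ± 0.12 (adjusted p = 0.045). Its call was lost in vehicle without NGS vehicle 1/2, C57BI6 vehicle 1/2/3 or C57BI6 ACSS2i 2/4 (up to 0.153) and under 1 other setting, and in ACSS2i without NGS vehicle 1/2, NGS ACSS2i 1, C57BI6 vehicle 3 or C57BI6 ACSS2i 2/3/4 (up to 0.293) and under 3 other settings. Map1lc3a was at 124, 106 and 91.2 CPM in NGS with vehicle and 119.8, 149.9 and 109 with ACSS2i, and in C57BI6 at 81.8, 103, 99.9 and 96.5 with vehicle and 87.8, 63.2, 102 and 89.7 with ACSS2i. It was -0.17 ± 0.16 (adjusted p = 0.431) in vehicle and -0.56 ± 0.15 (adjusted p = 0.00884) in ACSS2i, the latter lost without NGS ACSS2i 2 (0.0512). Sqstm1, whose receptor function links cargo to these proteins, was 0.13 ± 0.09 (adjusted p = 0.313) in vehicle and -0.29 ± 0.09 (adjusted p = 0.0218) in ACSS2i, lost without NGS ACSS2i 2 (0.0599) and without a filter (0.0595).

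Both transcription factors were lower in C57BI6, Tfe3 in either treatment and Tfeb in ACSS2i. Tfe3 (ENSMUSG00000000134, chromosome X, 7762560 to 7775202) was at 43.5, 42.7, 37.3 and 43.9 CPM in C57BI6 vehicle and 46.6, 42.9, 39.2 and 43.1 CPM in C57BI6 ACSS2i, below all NGS libraries. Tfe3 differed by -0.61 ± 0.12 (adjusted p = 0.000716) in vehicle and -0.87 ± 0.12 in ACSS2i (adjusted p = 2.12e-05). Tfeb was at 4.97, 7.89, 8.46 and 9.23 CPM in C57BI6 vehicle and 11.4, 7.35, 8.91 and 6.09 CPM in C57BI6 ACSS2i. It was -0.23 ± 0.31 (adjusted p = 0.603) in vehicle and -0.97 ± 0.30 (adjusted p = 0.0171) in ACSS2i, a call lost without NGS ACSS2i 3 or C57BI6 ACSS2i 4 (up to 0.0721).

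The members with CACGTG in the promoter window were set beside those without it. In vehicle, 5 of the 10 with the motif were higher and 0 lower in C57BI6 (median log2 fold change 0.40), and of the 15 without it 7 were higher and 3 lower (0.36). In ACSS2i these were 4 higher and 2 lower (0.29) and 5 higher and 5 lower (0.10). For the inhibitor, 0 of the 10 passed in either strain, with medians of -0.10 in C57BI6 and 0.01 in NGS. The 15 without it had medians of 0.04 and 0.13, and 1 of them, Npc2, passed in NGS. Of the 6 with the longer motif shown above, Atp6v1a and Gla were higher in C57BI6 in both treatments, Mcoln1 was higher and Ctsd and Atp6v0d1 lower in ACSS2i, and Ctsa passed in neither.

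The other genes of the pathway were a list of 172, of which 171 were tested in the same fit. For the inhibitor in C57BI6, 1 was higher and 0 lower (0.585%, beside 0.439% of all genes). That was Ctss, the cathepsin of antigen-presenting cells, at 662 to 874 CPM in vehicle and 1068 to 1460.3 CPM in ACSS2i, 0.70 ± 0.14 (adjusted p = 0.0375). The call was lost without NGS vehicle 3, NGS ACSS2i 3, C57BI6 vehicle 2/3/4 or C57BI6 ACSS2i 1/2/4 (up to 0.167). In NGS, 2 were higher and 7 lower (5.26%, beside 3.11% of all genes). Ctss was at 459 to 656 CPM in vehicle and 784 to 1054 CPM in ACSS2i, 0.69 ± 0.16 (adjusted p = 0.0334), lost without NGS vehicle 1/3 or NGS ACSS2i 2/3 (up to 0.121), with limma voom (0.118) and in the fit of the groups compared (0.147). Grn, progranulin, was 0.77 ± 0.17 (adjusted p = 0.024), lost without NGS vehicle 1/2 or NGS ACSS2i 2/3 (up to 0.0847) and in that fit (0.168). Beside these values, 2 of 12 macrophage and monocyte markers were higher with the inhibitor in each strain, Ly6c2 among them in both. Fcgr1 passed in NGS, and in C57BI6 was at 26.2 to 30.8 CPM in vehicle and 44.5 to 54.4 CPM in ACSS2i without passing (edgeR adjusted p = 0.101). The T and NK cell values of C57BI6 given above stand beside Ctss too, and the part of these cells in the result was not tested.

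Of the 7 lower genes in NGS, Bnip3, a mitochondrial receptor for autophagy, had the smallest p. Its libraries fell from a range of 124 to 146 CPM in vehicle to one of 70.7 to 91.7 CPM in ACSS2i, -0.78 ± 0.12 (adjusted p = 0.00514), and kept the call without any 1 library, though not in the fit of the groups compared (0.0888). M6pr, a sorting receptor for hydrolases, was -0.59 ± 0.12 (adjusted p = 0.0205), lost without NGS vehicle 1/2 or NGS ACSS2i 2 (up to 0.0629), with limma voom (0.107), in the fit of the groups compared (0.193) and with the replicate block (0.0502). The others were Atg10 (-1.07 ± 0.26), Atg4c (-1.34 ± 0.33), Atg3 (-0.51 ± 0.13), the mitochondrial receptor Bnip3l (-0.73 ± 0.18) and Fnip1 (-0.68 ± 0.17), a partner of folliculin. Among them Atg4c processes and Atg3 conjugates Atg8 proteins. Each of these 5 lost its call without 10 or more of the 14 libraries in turn. In the difference between the responses 0 of 171 passed, with 32 at an unadjusted p under 0.05, beside 2306 of the 17294 genes tested.

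Between the strains, 39 of the 171 were higher and 15 lower in C57BI6 in vehicle (median 0.11), and 56 higher and 27 lower in ACSS2i (median 0.14). These are 31.6% and 48.5% of the list, beside 32.3% and 39.9% of all genes tested. Vps8, a subunit of an endosomal tethering complex, differed most by p. Its libraries ran from 24.9 to 39 CPM in NGS and from 741 to 1204 CPM in C57BI6, with log2 fold changes of 4.72 ± 0.19 in vehicle (adjusted p = 1.39e-11) and 5.0 ± 0.20 in ACSS2i (adjusted p = 1.07e-11). Tpcn1, a lysosomal cation channel, was higher by 0.91 ± 0.10 (adjusted p = 4.08e-06) and 0.70 ± 0.10 (adjusted p = 6.8e-05). Wipi2, a relative of Wipi1, was higher by 0.59 ± 0.10 (adjusted p = 0.000266) and 0.46 ± 0.10 (adjusted p = 0.00206), the direction opposite to that of Wipi1. Deptor, an inhibitor of mTOR, was higher by 1.48 ± 0.22 (adjusted p = 0.000111) and 0.90 ± 0.21 (adjusted p = 0.00378). Ctsf, a further cysteine protease, was lower, -1.73 ± 0.36 (adjusted p = 0.00167) and -2.60 ± 0.36 (adjusted p = 3.65e-05). Each of these calls held under all 22 alternatives.

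Libraries of a group varied more in NGS than in C57BI6. For the 25 members whose mean log2 CPM was at least 5, the SD between libraries had a median of 0.21 with vehicle and 0.20 with ACSS2i in NGS, and of 0.13 and 0.11 in C57BI6 (log2 CPM). Over the 5145 genes at that level it was 0.17, 0.21, 0.12 and 0.10. Tfeb (0.79) and Hexa (0.74) had the widest SD in NGS vehicle, and Mcoln1 (0.78) and Ctsl (0.72) in NGS ACSS2i. Whether the counting used strand is not stated in the labels. The last 500 bases of Lamp1, Npc1, Ctsa, Ctsb, Ctsz, Becn1, Map1lc3b and Sqstm1 overlap the span of a gene on the opposite strand, introns included. Those of Ctsd and Map1lc3b overlap one on the same strand. Where exons overlap, reads of the same-strand pairs may not be told apart. Those of the opposite-strand pairs can be told apart only if the counting used strand. Overlap of exons was not examined.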

How the data were processed

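RNA of 14 mouse tumour libraries was counted per gene. The deposited values are whole-number counts per gene made by the authors; per the submitters' processing notes the tools were DESeq2 and RSEM 1.2.3 on build mm10, with roles unstated, so RSEM estimates may have been rounded. The extraction and the 3′ kit (QuantSeq) are given per the labels' protocols; aligner, annotation, strand setting and filters are not given in the sources used here. Symbols and positions came from GENCODE M21, which named 51596 of 51789 genes. Groups were taken from the strain and treatment labels. Counts were filtered with filterByExpr, scaled by TMM and tested, two-sided, with the quasi-likelihood test of edgeR 4.0.16 (R 4.3.3) in 1 model of the 4 groups, with Benjamini-Hochberg adjustment over 17294 genes and 5 comparisons each adjusted alone. The SE is the size of the log2 fold change divided by the square root of F, and intervals are 95% from the t distribution. The method was tested on simulated data. Between libraries of 1 group, chi-square divided by its degrees of freedom was 6.62 to 25.4 (1 for counting noise alone), so none was counted as a repeat, and the common biological coefficient of variation was 0.236. Intervals cover the spread among these libraries; no molecular identifiers are described. The members, the wider list and the markers were chosen with earlier results of these data known. A member is given in every library where it passed in any comparison or had 1 of the 3 smallest p in one. Of the wider list, at most 4 genes of smallest p per role and comparison are named, and not every gene that rule picks is given. The proton pump is an exception: all its genes that passed between the strains are named. Alternatives were DESeq2 size factors, DESeq2 1.42.0, limma 3.58.1 voom with quality weights, no filter, 1 CPM in 3 libraries, only the groups compared, a replicate block, each library left out and, added after seeing the data, counts thinned to 2846161 a library. Lists of the other cell types were 9 with 66 genes. Libraries were not paired by replicate number except in the replicate block. Some genes of the wider and marker lists are not reported here.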

Additional observations from a re-analysis of the deposited data

Results flagged for a closer look

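Atp6v1a in C57BI6 vehicle 4 stood apart from the other libraries of its group. It was at 477 CPM there and between 429 and 433 CPM in the other 3 libraries, a gap of 0.907 of the group's range, above the limit of 0.829 for 4 values. Among 60 groups of 4 libraries examined (30 members in each of the 2 C57BI6 groups) it was the 1 that passed this limit. Chance alone passes about 1 group in 20, so 1 of 60 is no more than chance gives.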

How the results depend on the processing

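No result reversed under the 22 alternatives. In C57BI6 the count of members called for the inhibitor, 0, became 1 with limma voom and 1 with DESeq2, and the count over all genes, 76, became 463 with limma voom, 339 with DESeq2, 325 in the fit of the groups compared and 36 with counts thinned to one depth. In NGS the members called, 1, became 2 with DESeq2 and 0 in the fit of the groups compared, and all genes called, 537, became 95 with limma voom, 1574 with DESeq2 and 20 in that fit. For the difference between the responses, members called became 1 with DESeq2, and all genes called, 3, became 6 with no filter, 0 with limma voom and 283 with DESeq2. Between the strains in vehicle all genes called, 5589, became 3626 with thinned counts. The cause was not tested for any of these. Thinning left fewer counts, and the fit of the groups compared used fewer libraries with its own filter, scaling and estimate of the spread. Leaving out 1 library gave 23 (without C57BI6 vehicle 2) to 135 genes (without NGS ACSS2i 2) in C57BI6, 192 (without NGS ACSS2i 2) to 1768 genes (without NGS ACSS2i 1) and 1 to 2 members in NGS, and 0 to 145 genes for the difference (145 without NGS ACSS2i 1). Between the strains it gave 12 to 17 members in vehicle, beside 4517 to 6619 of all genes. In ACSS2i it gave 14 to 22 members, beside 5889 to 7178 of all genes. The members' medians kept within the spread between libraries under every alternative run, though in NGS it ran from -0.04 to 0.08 and so on both sides of 0.

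The labels do not describe libraries with equal replicate numbers as pairs, and whether they share a batch cannot be settled from so few. Their deviations from the group means correlated at -0.14 to 0.14 between the C57BI6 groups (others -0.26 to 0.34), -0.01 to 0.08 between the NGS groups (others -0.11 to 0.08), and -0.16 to 0.07 across the strains. With the replicate block, all genes called became 35 in C57BI6 and 7 for the difference, and the members called stayed at 0 in C57BI6 and 1 in NGS. Between the strains 16 and 18 members were called with it in vehicle and ACSS2i. The counts over all genes with the block in NGS and between the strains are not given here. Depth limits the NGS libraries most: Mcoln1, Tfeb and Gla held 12 to 89 counts in each of them, and a difference that did not pass there may be too small for this depth.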

Other observations

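Of 15 proton pump genes outside the 30 members, 4 were higher and 2 lower in C57BI6 in vehicle, and 4 were higher and 4 lower in ACSS2i. Atp6v1g1, a stalk subunit, was lower in C57BI6 by -0.54 ± 0.08 (adjusted p = 0.000106) in vehicle and -0.31 ± 0.08 (adjusted p = 0.00768) in ACSS2i (log2 fold change ± SE, edgeR), and Atp6v0e2, a small membrane subunit, by -2.81 ± 0.56 (adjusted p = 0.00103) and -2.02 ± 0.58 (adjusted p = 0.0108). Atp6v0a1 and Atp6v0c were lower there in ACSS2i, by -0.70 ± 0.12 (adjusted p = 0.000243) and -0.60 ± 0.12 (adjusted p = 0.000704), where Atp6v0a2, Atp6v1b2 and Atp6ap2 were higher by 0.26 ± 0.09 (adjusted p = 0.0322), 0.52 ± 0.14 (adjusted p = 0.00771) and 0.35 ± 0.10 (adjusted p = 0.00893). Atp6v1e1 was higher in both treatments, by 0.38 ± 0.13 (adjusted p = 0.0286) and 0.53 ± 0.13 (adjusted p = 0.00361). Higher in vehicle were also Tcirg1 by 0.45 ± 0.14 (adjusted p = 0.019), Atp6v1c1 by 0.43 ± 0.12 (adjusted p = 0.00975) and Atp6v1d by 0.27 ± 0.10 (adjusted p = 0.0451). How the calls of these proton pump genes stood under the alternatives is not given here. Bnip3, a mitochondrial receptor, was at 124 to 146 CPM in NGS vehicle, 70.7 to 91.7 in NGS ACSS2i, 138 to 173 in C57BI6 vehicle and 159 to 178 in C57BI6 ACSS2i. Its difference between the strains in ACSS2i was 1.08 ± 0.11 (adjusted p = 1.55e-06), and that between the strains' responses, 0.83 ± 0.16 (adjusted p = 0.116), did not pass.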
